A study of Mus musculus with 2 samples.

Results

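The genes described here are 10 receptors and ligands of the platelet-derived growth factor (PDGF), fibroblast growth factor (FGF) and epidermal growth factor (EGF) families. They are the receptor genes Pdgfra, Pdgfrb, Fgfr1, Fgfr2 and Egfr and the ligand genes Pdgfa, Fgf2, Fgf7, Fgf10 and Fgf18. They were taken by gene symbol, and all 10 were found among the 27998 genes of the count matrix. Transcripts of single cells were counted in adipocyte precursors, the fibroblast-like cells from which fat cells form. The cells were sorted by flow cytometry from digested subcutaneous fat of wild-type mouse pups, aged 12 days and nursed by foster dams. Milk fat of the dams had a high n-6/n-3 ratio of polyunsaturated fatty acids in 1 condition and a low ratio in the other. Each condition is 1 sample of 3000 sorted cells by its labels, which name neither the antibodies of the sort nor the number of pups pooled. One protocol calls the cells fresh, while another has them frozen, thawed and freed of permeable cells.

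The libraries are parted by a barcode suffix that no label ties to a diet, so they are called library 1 and library 2 and no diet is compared. There is no replicate, and every interval below is a 95% interval for counting error alone. The matrix held 3321 and 3584 barcodes, more than the sorted cells stated per sample. After filtering, 6885 cells were kept, 3307 in library 1 and 3578 in library 2, with medians of 12962 and 12112.5 unique molecular identifiers (UMIs, each a counted transcript). The libraries summed to 42092816 and 43491307 UMIs, and 17 barcode sequences occurred in both. Precursor clusters held 6771 kept cells (98.3%), and the 114 others were macrophage-like, endothelial-like and erythroid-like cells. Clusters 0 and 3 carried markers of Dpp4-type progenitors, such as Pi16 and Krtdap (2970 cells, median 13316.5 UMIs). Raised markers, at 20 CPM and 2-fold over other cells, were 8 of 12 in cluster 0 and 4 of 12 in cluster 3. Dpp4 itself was raised in neither. Cluster 5 carried markers of committed preadipocytes, such as Lpl and Col15a1 (1361 cells, median 11159), and cluster 2 those of F3-type stromal cells, such as Mgp and Vit (389 cells, median 10877). In cluster 5, 9 of 12 markers were raised, without Fabp4, Pparg and Plin2, and in cluster 2, 6 of 7, without Meox1. Cluster 6 carried 14 of 14 cycling markers (312 cells). Clusters 1 (691 cells, led by Cilp, C1qtnf3 and Hspa1a) and 4 (1048 cells, led by Sfrp4, Scg3 and Smpd3) met no rule for a name. None of the 10 genes was used for clustering.

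PDGF ligands are dimers that bind receptor tyrosine kinases made of alpha and beta chains. PDGF-A signals through the alpha receptor, a widely used surface marker of adipocyte precursors, while the beta receptor is typical of pericytes and other mural cells and is also found on fibroblasts. FGF ligands bind FGF receptors together with heparan sulfate on the cell surface. Fgf7 and Fgf10 are stromal ligands that act mainly through the epithelial splice form of Fgfr2, and Fgf10 is also required for normal white fat development. Fgf2 signals through Fgfr1 among other receptors and supports growth of precursor cells in culture. Fgf18 is best known from bone and cartilage, and Egfr is the receptor for EGF and related ligands. These receptors relay their signals largely through the Ras and ERK kinase cascade, which induces its own inhibitors, the Sprouty proteins among them.

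Pdgfra, Fgf7 and Fgf10, called higher in committed-like cells, are shown with the 250 bases before their RefSeq start, since all were higher there than in Dpp4-type cells. Windows from the RefSeq promoter table (GRCm38.p6) were used for 8 of the 10 genes. Pdgfrb and Fgfr1 were not among them, so Pdgfrb, also called higher in committed-like cells, is not shown. Capitals mark matches, on either strand, to the TATA box, spelled TATAAA. They also mark the CCAAT box, whose name gives its letters. The GC box was searched as GGGCGG. The AP-1 site was searched as TGANTCA. No motif overlaps another in these windows. The Pdgfra window is chr5:75152001-75152250, that of Fgf7 chr2:126034408-126034657 and that of Fgf10 chr13:118714449-118714698, all on the plus strand. The Fgf10 window lies inside the GENCODE span of the gene given below (chr13:118669791-118792115), which starts before the RefSeq start used here.
Pdgfra: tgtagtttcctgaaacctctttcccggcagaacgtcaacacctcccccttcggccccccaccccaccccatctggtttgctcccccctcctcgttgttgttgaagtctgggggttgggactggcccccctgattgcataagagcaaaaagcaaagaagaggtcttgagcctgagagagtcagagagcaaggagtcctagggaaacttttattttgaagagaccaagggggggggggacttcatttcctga
Fgf7: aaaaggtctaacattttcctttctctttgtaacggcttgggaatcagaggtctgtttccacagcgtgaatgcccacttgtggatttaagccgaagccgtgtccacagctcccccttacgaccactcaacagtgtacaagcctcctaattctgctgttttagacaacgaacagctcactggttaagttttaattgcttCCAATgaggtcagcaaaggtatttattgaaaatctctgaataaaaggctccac
Fgf10: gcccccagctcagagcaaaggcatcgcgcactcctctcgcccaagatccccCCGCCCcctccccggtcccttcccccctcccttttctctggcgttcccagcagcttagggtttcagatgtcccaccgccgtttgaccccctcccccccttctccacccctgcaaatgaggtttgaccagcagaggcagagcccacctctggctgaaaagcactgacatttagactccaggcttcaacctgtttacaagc
The windows held different letters. Fgf7 had 1 CCAAT box, Fgf10 had 1 GC box, read on the opposite strand, and Pdgfra had none of the 4 motifs. Of 32851 windows of the same length, 33.8% held a CCAAT box, 32.7% a GC box, 12.4% a TATA box and 6.75% an AP-1 site, so neither match is unusual. G and C made up 43.6% of the Fgf7 window, 54.4% of that of Pdgfra and 61.2% of that of Fgf10, beside a median of 52.4% over all windows. A match describes letters only and says nothing of binding.

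The first question was whether these genes differ between committed preadipocyte-like and Dpp4-type progenitor-like cells. Committed-like cells carried more transcripts of both PDGF receptors and of the ligands Fgf7 and Fgf10, and fewer of the ligand Fgf2. A gene was called where it reached 10 CPM (UMIs of the gene per 1000000 UMIs of the class) in at least 1 class and lay 1.5-fold or more apart in the same direction in each library. Of the 8 members that reached this level, 4 were called higher and 1 lower. Over all 6899 genes compared, 7.97% were called higher and 11% lower. The median log2 fold of the 8 members was 0.58, beside -0.13 over all genes compared. Committed-like cells had fewer UMIs per cell, and after thinning each cell to 7470 UMIs the number of members called was again 5.

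**Figure D1:**
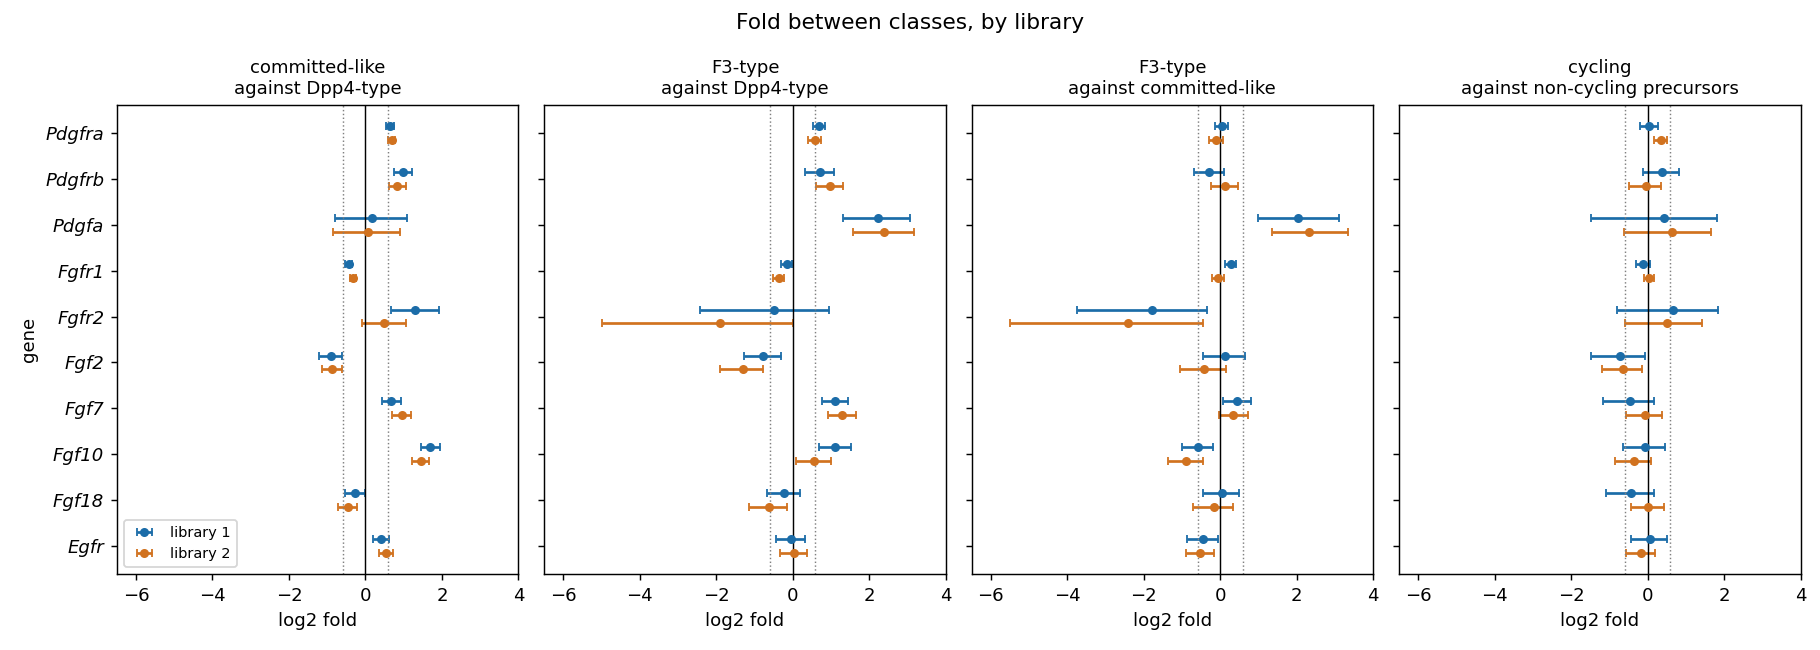
Log2 fold of each of the 10 genes in 4 comparisons of classes (x axis), for library 1 (blue) and library 2 (orange), with 95% intervals for counting error. Dotted lines mark 1.5-fold in each direction. Fgf10, Pdgfrb, Fgf7 and Pdgfra lie to the right of the line in both libraries for committed-like against Dpp4-type cells, and Fgf2 lies to the left. Pdgfa and Fgfr2 have wide intervals throughout.

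Pdgfra, which encodes the alpha receptor (chr5:75152292-75198215, plus strand, GRCm38), stood at 102 CPM in library 1 and 104 CPM in library 2 in Dpp4-type cells. In committed-like cells it stood at 160.4 and 167 CPM. The fold over both libraries was 1.59 (1.51 to 1.67). The members of the Dpp4-type class were close to each other, with 104 CPM in cluster 0 and 93.5 CPM in cluster 3. Pdgfrb, the beta receptor on chromosome 18, stood at 20.6 and 21.2 CPM in Dpp4-type cells and at 40.7 and 37.8 CPM in committed-like cells. The fold for Pdgfrb was 1.87 (1.68 to 2.09). With a stricter cell filter (at least 1000 genes and at most 5% mitochondrial counts) its fold was 2.02 in library 1 and 1.48 in library 2, which ended the call. Because Pdgfrb is also a mural cell gene, 8 mural markers were summed. They reached 93.7 CPM in Dpp4-type cells (76.3 to 113 over the libraries) and 55.5 CPM in committed-like cells (48.2 to 63.9), with no marker at 0 in either class. Only 1 of 8 mural markers reached 10 CPM in Dpp4-type cells and 2 of 8 in committed-like cells, so few carry the sum, and 1 of 8 was raised in cluster 5. The part of mural transcripts in the Pdgfrb difference was not tested.

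Among the ligands, Fgf10 (chr13:118669791-118792115, plus strand) had the widest gap. It stood at 13.1 and 15.8 CPM in Dpp4-type cells of libraries 1 and 2 and at 42.4 and 43.1 CPM in committed-like cells, a fold of 2.94 (2.62 to 3.29). It was called under each alternative for which this comparison could be made, except with a minimum of 50 CPM, which it does not reach. Fgf7 (chr2:126034658-126091185, plus strand) stood at 19.7 and 15.1 CPM in Dpp4-type cells and at 31.4 and 29.1 CPM in committed-like cells. Its fold was 1.75 (1.55 to 1.98). Under the stricter cell filter Fgf7 was 1.45-fold higher in library 1 and 1.73-fold higher in library 2, which ended the call.

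Fgf2 (chr3:37348346-37410108, plus strand) went the other way. It stood at 30.6 and 33.96 CPM in Dpp4-type cells and at 16.4 and 18.5 CPM in committed-like cells, 0.54 times the level (0.47 to 0.62). Under the stricter cell filter, which also changed the classes (1397 Dpp4-type and 2024 committed-like cells), the ratios were 0.70 and 0.76 and the call was lost. Exons of Nudt6 overlap those of Fgf2 on the opposite strand, and the sources used here do not say whether counting used the strand. Nudt6 was counted at 2.98 CPM in the Dpp4-type class and at 2.95 CPM in the committed-like one.

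The other receptors and Fgf18 lay on either side without passing the rule. Fgfr1, on chromosome 8, stood at 263 and 259 CPM in Dpp4-type cells and at 194 and 207 CPM in committed-like cells, 0.77 times the level (0.74 to 0.80). The gap for Fgfr1 was smaller than 1.5-fold. Egfr (chr11:16752203-16918158, plus strand) stood at 31.2 and 34.01 CPM against 41.5 and 49.7 CPM, 1.40-fold higher (1.28 to 1.54). Fgf18 (chr11:33117430-33147400, minus strand) stood at 26.8 and 28.0 CPM against 22.3 and 20.3 CPM, 0.78 times the level (0.68 to 0.88). At Leiden resolution 1, which cut the Dpp4-type class from 2970 to 843 cells, Fgf18 was called lower, at 0.65 and 0.60 times the level. Fgfr2 and Pdgfa did not reach 10 CPM in either class. Fgfr2, on chromosome 7, was counted with 120 UMIs in the Dpp4-type class (3.11 CPM) and 86 UMIs in the committed-like class (5.64 CPM). The annotation holds models that join Fgfr2 with its neighbour Ctbp2, so counts of the pair may be split. Pdgfa (chr5:138976014-138997370, minus strand) was at 1.94 CPM in the Dpp4-type and 2.10 CPM in the committed-like class, and the interval of its fold ran from 0.69 to 1.65.

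F3-type stromal-like cells were next set against Dpp4-type cells, which also served as the reference in the comparison above. F3-type cells carried more Pdgfrb and Fgf7 and less Fgf2. Of 8 members compared, 2 were called higher and 1 lower, where 8.43% of all 7081 genes were called higher and 6.95% lower. Fgf7 stood at 42.6 CPM in library 1 and 37.0 CPM in library 2, a fold of 2.31 over Dpp4-type cells (1.95 to 2.74). Pdgfrb stood at 33.5 and 41.3 CPM, a fold of 1.78 (1.497 to 2.12), from 73 and 87 UMIs. Once cells were thinned to one depth, Pdgfrb was 1.24-fold higher in library 1 and 1.92-fold higher in library 2, and its call was lost. Mural markers summed to 72.7 CPM in F3-type cells, below their sum in Dpp4-type cells. Fgf2 stood at 17.9 and 13.8 CPM, 0.49 times the level (0.38 to 0.62).

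Pdgfra and Fgf10 lay near the limit in this comparison. Pdgfra was at 165 and 155 CPM in F3-type cells, 1.61-fold higher in library 1 and 1.49-fold in library 2. Fgf10 was at 28.4 and 23.3 CPM, 2.17-fold higher in library 1 and 1.47-fold in library 2. Both passed the rule with the top 5% of cells by UMIs left out, with cells carrying markers of other types left out, at Leiden resolution 1 and with 3000 variable genes. At that resolution the Dpp4-type class held 843 cells (597 and 246 in the libraries), against 2970 above. In the classes used above, Fgf18 was 0.75 times the Dpp4-type level (0.59 to 0.93), Fgfr1 0.83 times (0.78 to 0.89) and Egfr 0.99 times (0.83 to 1.18).

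Pdgfa was the member with the steepest contrast in F3-type cells, although it stayed under 10 CPM over both libraries. It was counted at 8.71 CPM in library 1 (19 UMIs) and 10.4 CPM in library 2 (22 UMIs), against 1.87 and 2.0035 CPM in Dpp4-type cells. The fold was 4.92 (3.28 to 7.30), and against committed-like cells it was 4.55 (2.80 to 7.47). With no minimum level it was called in both comparisons. After thinning, 5.98% of F3-type cells held a Pdgfa UMI, beside 1.37% in cluster 0, 1.59% in committed-like cells and 0 of 14 erythroid-like cells (exact interval up to 23.2%). Before thinning the shares of F3-type, cluster 0 and committed-like cells were 8.23%, 2.44% and 2.20%. Endothelial-like cells stood above F3-type cells, at 40.7 CPM, with Pdgfa in 15.8% after thinning (6 of 38, exact interval 6.02 to 31.3%). It was found in 0 of 21 thinned macrophage-like cells (exact interval up to 16.1%). Fgfr2, in contrast, was counted with 6 UMIs in all F3-type cells, at 1.40 CPM, beside 5.64 CPM in committed-like cells, a ratio of 0.25 (0.089 to 0.56). An antisense gene that overlaps Pdgfa, 6330403L08Rik, was counted at 1.63 CPM in F3-type cells and 0.34 CPM in Dpp4-type cells.

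Set directly against committed-like cells, F3-type cells had no member called of 8 compared, where 6.74% of 6852 genes were called higher and 3.09% lower. Fgf10 came closest. It was 0.67 times the committed level in library 1 and 0.54 times in library 2, and 0.61 times over both (0.49 to 0.74). It was called lower with both other scalings, with thinned cells, with the stricter cell filter and with either of the other clusterings that gave these classes and left the members out. Fgf7 lay in the opposite direction at 1.32-fold (1.10 to 1.58), and Egfr at 0.71 times (0.58 to 0.85). Pdgfra at 0.98 times (0.90 to 1.06) and Pdgfrb at 0.95 times (0.80 to 1.14) had intervals that included equal levels, as had Fgf2 (0.68 to 1.19) and Fgf18 (0.75 to 1.23). Fgfr1 was 1.08-fold higher (1.01 to 1.17), with 1.21-fold in library 1 and 0.97 times in library 2.

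Levels over all 7 precursor clusters set the unnamed clusters among these classes. Pdgfra was lowest in clusters 0 and 3, at 104 and 93.5 CPM, with intervals apart from those of the other clusters. Clusters 5, 1, 2, 4 and 6 held 164, 162, 160.2, 146 and 136 CPM, each next to a neighbour with an overlapping interval. They were not 1 level, since cluster 5 (157 to 170 CPM) lay apart from cluster 4 (139 to 152) and cluster 6 (125 to 147). Cluster 1, with leading genes of elastic matrix and immediate early response, had 42.8 CPM of Fgf7 (42.6 and 43.0 CPM in the libraries) and 44.9 CPM of Fgf10 (49.8 and 38.7). Its Fgf7 interval overlapped that of F3-type cells, and its Fgf10 interval that of committed-like cells. At Leiden resolution 1, Cilp, C1qtnf3 and Eln led a cluster of 262 cells, and Hspa1a, Fos and Jun a separate one of 542. The levels of cluster 1 may thus average over both. Cluster 4 combined 37.9 CPM of Fgf10 with 19.6 CPM of Fgf7, so the ligands did not share 1 order of clusters. Fgf18 was highest in cluster 4, at 34.7 CPM (36.9 and 31.9 CPM in the libraries), with an interval apart from the next, cluster 0 at 27.8 CPM. Fgf2 was at 30.4 CPM in cluster 4 and 20.5 CPM in cluster 1, close to Dpp4-type cells in the former and to committed-like cells in the latter. Fgfr1 ran from 264 CPM in cluster 0 to 201 CPM in cluster 5, a 1.31-fold range. Egfr was highest in cluster 5, at 45.9 CPM, apart from cluster 4 at 37.0 CPM.

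**Figure D2:**
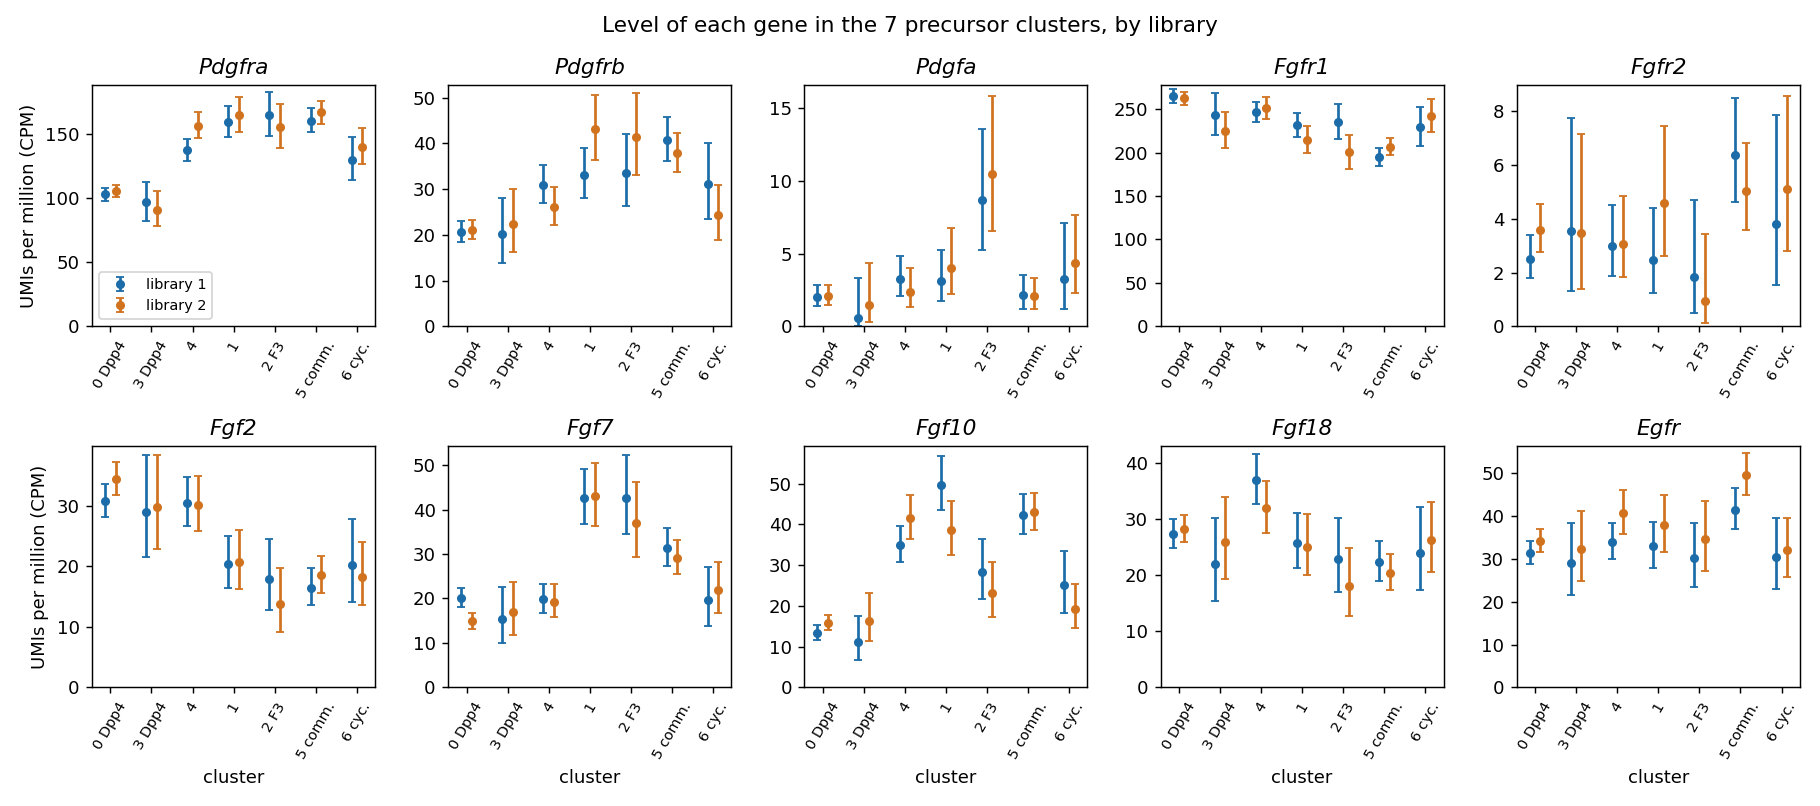
Level of each gene in CPM (y axis, starting at 0) in the 7 precursor clusters (x axis), for library 1 (blue) and library 2 (orange), with exact Poisson intervals at 95%. Clusters 0 and 3 are Dpp4-type, 2 is F3-type, 5 is committed-like, 6 is cycling-like, and 4 and 1 are unnamed. Pdgfa stands highest in cluster 2 in both libraries, and Fgf7 in clusters 1 and 2.

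Levels in cells of other types were set beside those of the precursors, and the source of the counts there was not tested. Pdgfrb stood at 121 CPM in the 49 endothelial-like cells (114 and 129 CPM in the libraries), which also carried 6 of 8 raised mural markers, and Pdgfa stood there at 40.7 CPM. Pdgfra was at 82.5 CPM in 47 macrophage-like cells, 29.2 CPM in endothelial-like cells and 34.6 CPM in 18 erythroid-like cells. The macrophage-like interval (57.8 to 114 CPM) included the levels of both Dpp4-type clusters, and in library 2 those cells were at 93.9 CPM against 90.99 CPM in cluster 3. Macrophage-like cells also held 197 CPM of Fgfr1, near the committed-like level, and 27.5 CPM of Pdgfrb (14.2 to 48.03), an interval that included the Dpp4-type level. After thinning, 67.3% of committed-like and 53.3% of cluster 0 cells held a Pdgfra UMI, beside 14.3% of 14 erythroid-like cells. Their median depths before thinning were 11159, 13351.5 and 11508.5 UMIs, and without thinning the shares were 78.9%, 70.9% and 16.7%. Macrophage-like cells, with a median of 6832 UMIs, held it in 42.9% after thinning (9 of 21, exact interval 21.8 to 65.98%) and 46.8% before, close to the 47.6% of thinned cluster 3 cells. Fgf10 was found in 27.9% of thinned committed-like cells and 11.1% of thinned cluster 0 cells (35.05% and 16.9% without thinning). After thinning it was found in 1 of 14 erythroid-like cells (7.14%, exact interval 0.18 to 33.9%), 1 of 21 macrophage-like cells (4.76%, 0.12 to 23.8%) and 6 of 38 endothelial-like cells (15.8%, 6.02 to 31.3%), the last with a median of 19074 UMIs. These intervals all included the share of cluster 0, which was therefore not detectably above that of the other cell types. In CPM, Fgf10 was at 9.90, 11.5 and 9.39 in these cells, against 14.6 in cluster 0. For Fgf7 the thinned shares were 18.6% in committed-like, 12.5% in cluster 0 and 7.14% in erythroid-like cells, with 25.4%, 18.9% and 5.56% before thinning. It was found in 0 of 38 endothelial-like cells (exact interval up to 9.25%). Fgf2 shares in committed-like (12.4%) and F3-type cells (10.3%), and Fgf18 shares there (12.5% and 11.97%), were likewise not above those of erythroid-like cells, at 14.3% for both genes (2 of 14, exact interval 1.78 to 42.8%). Before thinning, Fgf2 was found in 17.3% of committed-like, 16.5% of F3-type and 11.1% of erythroid-like cells. In CPM, Fgf2 was at 9.90 in erythroid-like and 16.04 in macrophage-like cells.

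The same genes were followed along an axis from progenitor to committed state, formed from the mean level of committed markers minus that of Dpp4-type markers in non-cycling cells. Cells were divided into 5 bins of equal size. The bins are ranges, not cell types: bin 1 held 82.7% cells of cluster 0, and bin 5 held 76.8% of cluster 5. Pdgfra stood at 93.4, 107, 129, 164 and 169.6 CPM from bin 1 to bin 5. Pdgfrb stood at 20.2, 20.3, 27.8, 33.8 and 42.0 CPM, and Fgf10 at 12.4, 15.5, 28.6, 38.9 and 46.2 CPM. These genes were higher in each bin than in the one before, over both libraries together. So were Fgf7, from 15.2 to 35.3 CPM, and Egfr, from 31.5 to 45.2 CPM. Fgf7 was at 20.04 CPM in bin 3 and at 33.8 CPM in bin 4, so most of its gap lay between these bins. Fgf2 was lower in each bin, at 32.4, 31.8, 31.3, 21.6 and 17.1 CPM, and Fgfr1 likewise, from 264 to 197 CPM. Fgf18 stood at 27.4 CPM in bin 1, 31.6 CPM in bin 3 and 21.1 CPM in bin 5, and only library 1 had its highest level in bin 3. Single libraries did not keep every step of these orders: Fgf2 and Fgfr1 were not lower in each bin within either library. In library 1, Pdgfra was lower in bin 5 than in bin 4 (161 against 163 CPM). Egfr there was lower in bin 2 than in bin 1 (30.5 against 30.9 CPM). In library 2, Pdgfrb was lower in bin 2 than in bin 1 (20.4 against 21.8 CPM). Fgf7 and Fgf10 were higher in each bin within both libraries.

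Between the last and the first bin, Pdgfra, Pdgfrb, Fgf7 and Fgf10 were called higher and Fgf2 lower, where 8.3% of 7024 genes were called higher and 11.5% lower. The fold was 3.73 for Fgf10, 2.33 for Fgf7, 2.08 for Pdgfrb, 1.82 for Pdgfra and 0.53 for Fgf2. These bins draw on the cells compared as classes above, so they show the course of the same differences and are no second test.

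**Figure D3:**
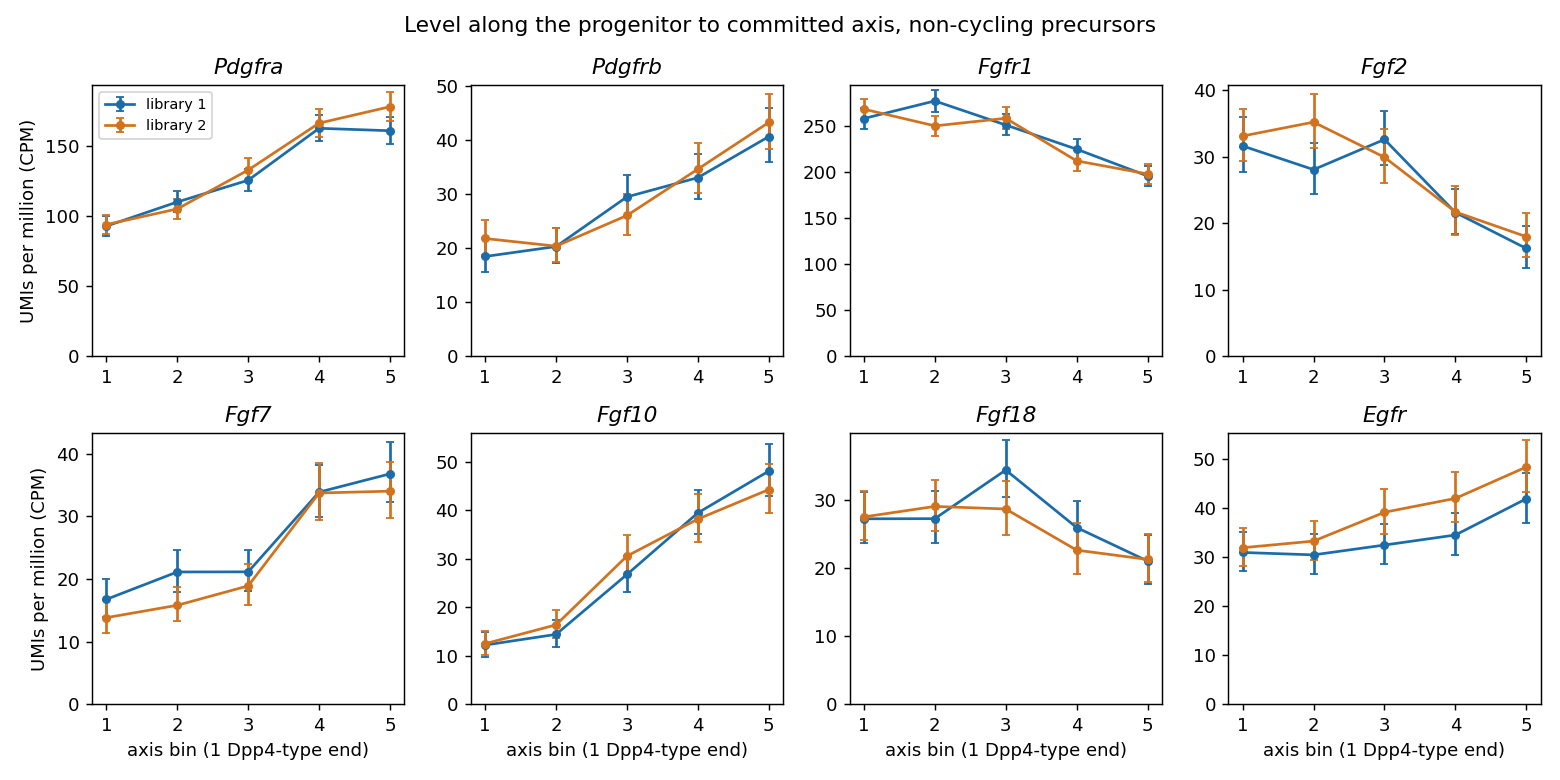
Level in CPM (y axis, starting at 0) of the 8 genes that reach 10 CPM, in 5 bins of non-cycling precursor cells from the Dpp4-type end (1) to the committed end (5), for library 1 (blue) and library 2 (orange), with exact Poisson intervals at 95%. Pdgfra, Pdgfrb, Fgf10 and Fgf7 are higher at the committed end in both libraries, and Fgf2 is lower.

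Cycling precursors were compared with non-cycling ones to ask whether any of these growth factor genes differ with division. Cycling cells, 183 in all, had at least 2 UMIs of either Mki67 or Top2a, genes of dividing cells (70 in library 1 and 113 in library 2), while 6043 precursor cells had no UMI of either. No member was called higher and only Fgf2 was called lower, of 8 compared, where 11.1% of 7338 genes were called higher and 1.24% lower. Fgf2 stood at 15.9 and 18.01 CPM in cycling cells and at 26.3 and 28.2 CPM in non-cycling cells, a ratio of 0.63 (0.47 to 0.83) from 52 UMIs. This call was lost with thinned cells (0.48 and 0.68 in the libraries), with the top 5% of cells by UMIs left out (0.56 and 0.69) and with cells carrying markers of other types left out (0.61 and 0.84). It was also lost when cycling was set at 1 or more UMIs of either gene (0.84 and 0.78), at 4 or more of both together (0.73 and 0.67), and within the Dpp4-type class (0.52 and 0.99).

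Pdgfra stood at 133 and 167 CPM in cycling cells and at 129.5 and 132 CPM in non-cycling cells, 1.02-fold in library 1 and 1.27-fold in library 2. The libraries thus gave different sizes, and over both the fold was 1.18 (1.07 to 1.29). Pdgfrb stood at 36.3 and 27.5 CPM against 28.0 and 28.4 CPM, and Fgfr1 at 226 and 246 CPM against 243 and 240.3 CPM. Intervals of the fold included equal levels for both, at 0.88 to 1.34 and 0.91 to 1.06. Fgf7 at 0.84 times (0.64 to 1.09), Fgf10 at 0.85 times (0.66 to 1.08), Fgf18 at 0.90 times (0.71 to 1.14) and Egfr at 0.95 times (0.78 to 1.16) also had intervals that included equal levels. Pdgfa (12 UMIs in cycling cells) and Fgfr2 (16 UMIs) were too sparse to compare, at 3.98 and 5.30 CPM. Cycling cells had a median of 16377 UMIs against 12388, and in library 1 erythroid markers summed to 7712 CPM in them, against 19.6 CPM in library 2. The part of either in these values was not tested. Along the axis, 21.9% of cycling cells fell in bin 1 and 22.4% in bin 5, and with non-cycling cells weighted to the same spread the number called was again 1.

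In precursor cells the libraries were close to each other in all 10 genes. No member was called between them there, where 0.679% of 6777 genes were 1.5-fold or more apart. None was called within the Dpp4-type class (0.487% of genes), the committed-like class (1.62%), the F3-type class (9.31%), cycling cells (14.1%) or non-cycling cells (0.564%) either. Fgfr2 stayed under 10 CPM in every class, and Pdgfa in all but the F3-type class, so there they could not be called. In F3-type cells Fgfr2 was at 0.52 times in library 2 (0.047 to 3.61), from 4 and 2 UMIs. With so few genes compared, the lack of calls is no result about the members. Over precursor cells, the lowest ratio of library 2 to library 1 was 0.87 (0.80 to 0.95) for Fgf7, at 25.4 and 22.1 CPM. The highest was 1.16 (0.92 to 1.46) for Fgfr2, at 3.31 and 3.83 CPM. Egfr stood at 33.6 and 38.1 CPM, a ratio of 1.13 (1.06 to 1.22). Within classes, Fgf7 was at 0.77 times in Dpp4-type cells (0.65 to 0.89) and 0.93 times in committed-like cells (0.77 to 1.12), and Egfr was higher in library 2 in both classes. These are values of 2 libraries and no diet is attached to them. Erythroid markers differed far more, at 853 CPM in library 1 and 19.99 CPM in library 2 in Dpp4-type cells.

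In single cells, co-detection asked whether the receptors were found in the same cells. In thinned Dpp4-type cells, 7.77% held UMIs of both Pdgfra and Pdgfrb, where the product of the single shares gives 7.80%. The ratio of observed to expected was 0.996 (0.87 to 1.13) there, 1.05 (0.92 to 1.19) in committed-like and 1.06 (0.81 to 1.35) in F3-type cells. Pdgfra with Fgfr1 gave 1.01, 0.99 and 0.97. For these 2 pairs the intervals included the product of the single shares. Each interval is that of the joint share divided by this product, which is taken as fixed. It is no exact interval for the ratio, so including equality does not show independence. Fgfr1 was detected in 77.3 to 85.4% of cells, which leaves its ratio little room above equality. Fgf7 with Fgf10 gave 1.19 (0.87 to 1.58) in Dpp4-type, 1.29 (1.03 to 1.58) in committed-like and 1.21 (0.72 to 1.88) in F3-type cells. In library 1 the committed-like ratio stood at 1.17 (0.84 to 1.59), from 38 cells with both, and in library 2 at 1.39 (1.03 to 1.84), from 46 cells, which is sparse. Other pairs, such as Pdgfra with Egfr and Fgf2 with Fgf10, were also computed. Over both libraries, the committed-like ratio of Fgf7 with Fgf10 was the only one whose interval left out equality.

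Across the 7 precursor clusters by library, 14 points in all, some members varied together and others inversely. These correlations of log2(CPM + 5) are descriptions over points that share libraries and depth. Pdgfra had a Pearson r of 0.85 with Pdgfrb, 0.86 with Fgf10 and 0.79 with Fgf7, and -0.71 with Fgf2. Fgfr1 had 0.79 with Fgf2 and -0.82 with Pdgfrb. Among 4540 genes with at least 20 CPM, those most like Pdgfra were Kitl (0.96), Tnfrsf1a (0.96), Rbpms (0.95), Igf1 (0.94) and Sgk1 (0.94). Igf1 encodes insulin-like growth factor 1 and Kitl the ligand of the Kit receptor. Prlr, the prolactin receptor (0.94), and Dusp1, a phosphatase of MAP kinases (0.93), were most like Pdgfrb. Fgf10 was followed most closely by Scg3 (0.98) and Abca8a (0.95), Fgf7 by Btg2 (0.95) and the matrix gene Fbln1 (0.95), and Fgf2 by Rcan2 (0.94) and Flnc, a filamin (0.94). Most opposite to Pdgfra were Timp2 (-0.96), an inhibitor of metalloproteinases, Igfbp5 (-0.96), which binds insulin-like growth factors, and Bmp7 (-0.94). Igfbp5 and Bmp7 were among the leading genes of cluster 0.

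Other genes of these pathways were taken from 8 lists with 137 genes. Between committed-like and Dpp4-type cells, 71 reached the level, of which 11 were called higher and 14 lower. Over all genes, 18.9% were called in either direction. The median log2 fold of these 71 genes was -0.16, beside -0.13 over all genes. Of 17 genes of heparan sulfate, the co-receptor of FGF ligands, 2 were called higher, 6 lower and 9 neither. Sulf1, which removes sulfate groups from heparan sulfate outside the cell, stood at 218 and 204 CPM in Dpp4-type cells and 72.8 and 68.4 CPM in committed-like cells, a log2 fold of -1.58. Hpse, which cleaves the chains, was at -1.49 and Glce, an epimerase of their synthesis, at -1.39. Sdc1, a syndecan core protein, was higher by 1.35, from 3.96 to 10.1 CPM.

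Genes that process ligands or assist receptors had 2 of 11 called higher and 1 lower, beside 7.97% and 11% of all genes. So few calls are no result about the list. Adam12, a membrane protease with the widest gap of the 71 genes, stood at 18.3 and 15.002 CPM in Dpp4-type cells and at 109 and 113 CPM in committed-like cells, a log2 fold of 2.75. Nrp1, a co-receptor that binds several growth factors, stood at 49.3 and 48.8 CPM against 156 and 153 CPM (1.65). Pcsk6, a proprotein convertase, was lower at -1.39. Of the other PDGF genes, Pdgfrl was called lower at 165 and 107 CPM (-0.63), Pdgfd was at 22.7 and 17.3 CPM, and Pdgfb and Pdgfc stayed under 10 CPM. Flrt2, a transmembrane protein that can bind FGF receptors, was the 1 gene compared of its list and was lower at -1.26. None of 20 other FGF ligands and binding proteins reached 10 CPM in either class.

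Feedback genes and targets of ERK signalling had 6 of 13 called higher and 3 lower, beside 7.97% and 11% of all genes. Phlda1 stood at 270 and 256 CPM against 664 and 731 CPM (1.41), Spry1, a Sprouty inhibitor, was higher by 1.08 and Fosl1 by 0.92. Spry2, a second Sprouty gene, was called lower, at 44.9 and 27.7 CPM (-0.70), and Ccnd1, cyclin D1, at 24.3 and 7.21 CPM (-1.75). The list thus held called genes in both directions. Of 26 signal relay genes compared, 1 was called higher, 2 lower and 23 neither, beside 18.9% of all genes called in either direction.

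**Figure D4:**
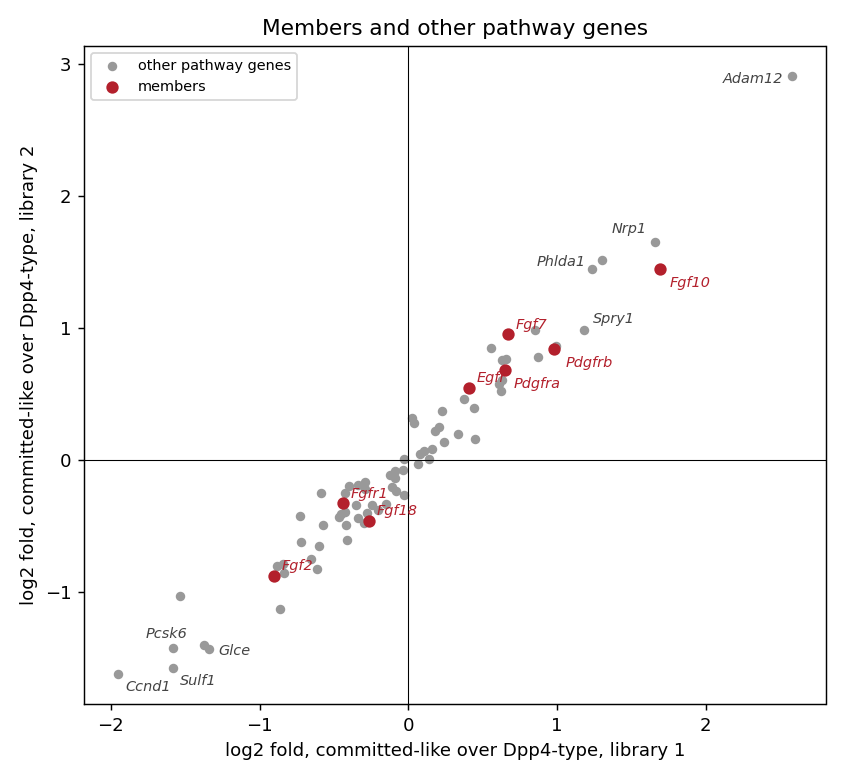
Log2 fold of committed-like over Dpp4-type cells in library 1 (x axis) and library 2 (y axis), for 8 members (red) and 71 other pathway genes (grey) with at least 10 CPM in either class. Points lie near the diagonal, so folds were similar in both libraries, with Adam12 highest and Ccnd1 lowest.

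In F3-type cells, 13 of 73 pathway genes were called higher than in Dpp4-type cells and 9 lower, beside 15.4% of all genes in either direction. Nrp1 stood at 290.1 and 274 CPM in F3-type cells (2.52), above its level in committed-like cells by 0.87. Spry1 stood at 35.3 and 35.1 CPM (2.17) and was above committed-like cells by 1.09. Fgf1, an FGF ligand, stood at 17.9 and 23.3 CPM in F3-type cells, 6.94 and 8.16 CPM in Dpp4-type cells and 2.69 and 3.06 CPM in committed-like cells. It was the 1 further FGF ligand that reached the level, higher by 1.43 than in Dpp4-type and by 2.83 than in committed-like cells. Pcsk6 (-1.96), Sulf1 (-1.52), Sulf2 (-1.20) and Glce (-1.19) were lower than in Dpp4-type cells. Against committed-like cells, 8 pathway genes were called higher and 2 lower, beside 9.84% of all genes in either direction, and Adam12 was lower at -1.54. Cycling cells had 3 pathway genes called higher and 1 lower of 73, beside 12.3% of all genes in either direction. These were Hs6st2, a sulfotransferase of heparan sulfate (13.6 against 2.99 CPM), Sdc1 (14.6 against 5.70 CPM), the EGF receptor ligand gene Hbegf (16.6 against 10.1 CPM) and, lower, Cblb, a ubiquitin ligase (8.61 against 15.9 CPM).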

How the data were processed

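Deposited values are whole-number UMI counts per gene and barcode, not normalized by the authors. The submitters' processing notes name Seurat 3.0.1, Cell Ranger without a version, and the mm10 build, and the protocol names 10x Genomics 3' chemistry. The members, lists and comparisons were chosen with earlier results of these data known. Barcodes with at least 500 genes and at most 10% mitochondrial counts were kept (3307 and 3578). With scanpy 1.11.5, 2000 variable genes, 30 components, 15 neighbours and Leiden resolution 0.5 gave 10 clusters. Members, pathway, mitochondrial, ribosomal and cycling genes were left out of the variable genes. Naming a cluster required 3 or more markers, and 33.3% of a list, at 20 CPM and 2-fold over other cells. No doublet caller was run, so doublets remain.

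Counts were summed per class and library and scaled to CPM. Intervals are exact Poisson for a sum, Clopper-Pearson for a share and conditional exact for a ratio of 2 levels. For co-detection, the Clopper-Pearson interval of the joint share was divided by the product of the single shares, taken as fixed. The call rule needs 10 CPM and 1.5-fold in each library. No p-value is given, since each condition has 1 library. For shares, cells were thinned to 7470 UMIs, which left out 375 and 314 cells. The text names every member. Of the pathway genes it names those among up to 6 called genes in each direction per comparison. Pdgfb, Pdgfc, Pdgfd, Pdgfrl and Spry2 (in committed-like cells) were named after their values were seen. Likeness names the genes with the highest and lowest r. Coordinates are from GENCODE M21 and windows from RefSeq, both GRCm38. Alternatives covered TMM (edgeR 4.0.16) and DESeq2 1.42.0 size factors, both for scaling only, level minimum, cell filter, depth, doublets, cells of other types, single libraries, clustering, and definitions of cycling and of the axis. The Dpp4-type class from cluster 0 alone was added after the data were seen. A further added alternative is not reported here.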

Additional observations from a re-analysis of the deposited data

How the results depend on the processing

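No paired analysis was possible because each condition has 1 sample and no label ties a library to a condition. For committed-like against Dpp4-type cells, the 5 members called became 1 with a minimum of 50 CPM (Pdgfra) and 2 with the stricter cell filter (Pdgfra and Fgf10), and stayed at 5 or 6 under the other alternatives run. For F3-type against Dpp4-type cells, the 3 called became 0 at 50 CPM, 5 in library 1 alone and 5 in library 2 alone. They became 6 with the stricter cell filter and at Leiden resolution 1, and 5 with the top 5% of cells by UMIs left out, with cells carrying other markers left out and with 3000 variable genes. With thinned cells the call of Pdgfrb was lost, and with no minimum Pdgfa was added. The stricter filter and Leiden resolution 1 also left a smaller Dpp4-type class, of 1397 and 843 cells. For F3-type against committed-like cells, the 0 called became 2 with TMM, 1 with DESeq2 size factors, 2 with no minimum, 2 in library 2 alone, 2 with the stricter filter, and 1 with thinned cells, at Leiden resolution 1 and with 3000 variable genes. For cycling cells, the 1 called became 0 at 50 CPM, with thinned cells, with the top 5% or other-marker cells left out and with 1 or 4 UMIs as the limit. Within Dpp4-type cells, where 10 cycling cells remain, it became 2, neither of them Fgf2: Pdgfrb was lower (0 and 0.53) and Egfr higher (1.51 and 1.66). The cause was not tested. The 61 pathway calls over 4 comparisons became 146 with no minimum and 34 at 50 CPM. Of the members' fold changes under alternatives, 484 stayed within the counting interval of the reported value (along the axis, near the value itself), 42 moved, and no called member changed sign. With members among the variable genes no cluster met the Dpp4-type rule, so those comparisons could not be made. Pdgfa and Fgfr2 rest on too few UMIs for narrow intervals.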
